A study of Mus musculus with 8 samples.

Results

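The 36 genes described here are a set of DNA replication and mitosis genes, chosen by name: 16 act in S phase and 20 act in mitosis. All 36 names were found among the 46625 genes of the deposited count table. The table holds RNA of 8F10 T cells, whose antigen receptor recognises a peptide of insulin, in 8 libraries. T and B cell-depleted marrow stem cells of TCR alpha chain-deficient 8F10 donors (CD45.2) had been given to CD45.1 hosts, either NOD or B16A, that were irradiated at a non-lethal dose. The strain label of every library is NOD/ShiLtJ, and B16A mice are NOD mice whose insulin has a changed residue in the B chain. After 6 weeks the 8F10 T cells were sorted by flow cytometry out of the inguinal nodes of either host, and these nodes drain the flank and hind limb rather than the pancreas. The non-lethal dose can leave host cells in place, and the labels give neither the age of the hosts nor the number of animals behind a library. Each host has 4 libraries, 1 per batch, and the batch number pairs the hosts.

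S phase and mitotic genes are switched on in order through the cell cycle. Before S phase the licensing factors CDC6 and CDT1 load the MCM2 to MCM7 ring onto origins. In S phase CDC45 and the GINS complex turn the ring into an active helicase, while PCNA holds the polymerases on the template. From G2 on, cyclins A2, B1 and B2 with CDK1 drive entry into mitosis, where kinases, motors and the spindle checkpoint move and count the chromosomes, and the APC/C then destroys the cyclins. A resting T cell expresses few of these genes, and a T cell that meets antigen and divides expresses most of them.

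Total counts were 4896593 to 6137666 per library in batches 1 to 3, with 28301805 (NOD) and 28094237 (B16A) in batch 4. The batch 4 libraries stood apart in another way too: 19751 and 20723 genes had at least 1 count there, against 29729 to 33175 in the other 6. Levels are given as CPM, the counts of a gene per 1000000 counts of a library whose size was scaled by TMM. A count of 0 allows a level of up to 0.457 to 0.561 CPM in batches 1 to 3, and 0.134 and 0.126 CPM in batch 4 (3 counts, counting error only). The marker genes of CD4 T cells summed to 4560 to 9050 CPM in batches 1 to 3 and to 15600 and 11800 CPM in batch 4. All 9 of these markers were present in every library, and TRBC1 and CD3E had the highest means over the 8, though not the highest values in each. CD4 and CD5 did not follow the rise of that sum in batch 4. CD4 had 20461 (NOD) and 16690 (B16A) counts there against 5487 to 7713 in the shallower libraries. CD5 had 1685 and 1123 against 439 to 702, and both steps were smaller than that of the total counts.

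Some promoters of each set carried sequence motifs that textbook accounts tie to the cell cycle. RefSeq's promoter table (GRCm38.p6) held 29 of the 36 members, 14 of S phase and 15 of mitosis, and the 250 bases before the start were searched on both strands. The E2F motif, bound by E2F factors, was searched as TTCCCGC and as its variants with other letters in the middle: TTGGCGC for the first variant, TTCGCGC for the next and TTGCCGC for the last. It was found in 6 of 14 S phase promoters (42.9%) and 3 of 15 mitosis promoters (20%), against 7.97% of all 27025 promoters in the table. The CHR motif (TTTGAA or TTCGAA), bound by the MuvB complex of late cell cycle genes, was found in 21.4% and 60% of them, against 17.4% of all. The S phase share of CHR thus lay near that of all promoters. At least 1 CCAAT box (CCAAT), bound by NF-Y, was found in 64.3% and 86.7%, against 34.5%. The CHR motif and a CCAAT box occurred together in 9 of 15 mitosis promoters, against 6.21% of all. An E2F match can share letters with a CCAAT match, and a match is a description of letters, not of binding.

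The 150 bases before the start are shown for 3 S phase and 4 mitosis genes, to let the difference be read in the letters. Capitals mark every match to the E2F, CCAAT or CHR motif on either strand, and adjacent matches run together. MCM3 is at chr1:20820313-20820462 (minus strand), MCM5 at chr8:75109359-75109508 (plus) and MCM6 at chr1:128359706-128359855 (minus). MKI67 is at chr7:135716380-135716529 (minus), CCNB2 at chr9:70421555-70421704 (minus), TOP2A at chr11:99024190-99024339 (minus) and HMGB2 at chr8:57511693-57511842 (plus). All are stretches of build GRCm38.p6, written 5′ to 3′ toward the gene. Bases shortly after the start were found in an annotated transcript of the gene for MCM3, MKI67, CCNB2 and TOP2A. For MCM5, MCM6 and HMGB2 they were not, so the start is less certain there.
MCM3: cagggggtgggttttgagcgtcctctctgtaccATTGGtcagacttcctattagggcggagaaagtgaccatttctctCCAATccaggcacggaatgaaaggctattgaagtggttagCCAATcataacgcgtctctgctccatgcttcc
MCM5: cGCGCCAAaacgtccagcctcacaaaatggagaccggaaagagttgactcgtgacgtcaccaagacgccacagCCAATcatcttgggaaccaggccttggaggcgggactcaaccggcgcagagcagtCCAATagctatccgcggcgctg
MCM6: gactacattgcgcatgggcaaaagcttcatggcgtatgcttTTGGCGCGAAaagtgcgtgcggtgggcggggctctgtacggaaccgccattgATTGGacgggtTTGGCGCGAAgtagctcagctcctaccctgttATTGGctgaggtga
MKI67: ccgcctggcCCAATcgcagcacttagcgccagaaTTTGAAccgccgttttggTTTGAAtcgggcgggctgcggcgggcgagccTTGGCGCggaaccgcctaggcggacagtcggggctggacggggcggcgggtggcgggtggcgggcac
CCNB2: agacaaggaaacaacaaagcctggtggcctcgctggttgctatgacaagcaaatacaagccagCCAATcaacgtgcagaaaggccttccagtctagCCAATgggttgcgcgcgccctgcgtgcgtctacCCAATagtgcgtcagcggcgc
TOP2A: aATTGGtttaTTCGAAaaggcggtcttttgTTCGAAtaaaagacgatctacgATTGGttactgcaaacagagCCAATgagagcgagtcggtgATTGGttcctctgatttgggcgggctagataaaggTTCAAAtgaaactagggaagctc
HMGB2: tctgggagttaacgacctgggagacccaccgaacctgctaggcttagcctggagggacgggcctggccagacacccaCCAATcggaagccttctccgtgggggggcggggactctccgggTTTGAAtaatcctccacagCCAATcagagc
In the 150 bases shown MCM6 has 2 E2F stretches, each matched on both strands. MCM5 has 1 E2F match there, while MCM3 has CCAAT boxes only. TOP2A and HMGB2 pair CHR motifs with CCAAT boxes. MKI67 has an E2F match, CHR motifs and a CCAAT box. In the 150 bases shown CCNB2 has CCAAT boxes only, and its 1 CHR match lies farther upstream.

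No member differed between the hosts by the test across all genes. Of the 36 members, 25 passed the filter on low counts, 13 of S phase and 12 of mitosis. With edgeR's quasi-likelihood test and batch as a term, 0 of 25 had an adjusted p under 0.05, with adjusted p from 0.8444 to 0.998. The same test called 0 of all 14607 tested genes (0%), while DESeq2 with the batch term called 27 genes (0.185%), 23 higher and 4 lower in NOD hosts, and 0 members. DESeq2 gave an adjusted p for 1 member alone, MCM4, at 0.727. At an unadjusted p under 0.05, 1 member (PCNA) was higher in NOD hosts and 0 were lower, where 3.55% of all genes were higher and 2.31% lower. Whether the libraries of a host stem from separate animals is not in the labels, and each p therefore reflects only library-to-library spread, which may be technical.

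The 16 S phase genes together stood at 242, 219, 248 and 577 CPM in NOD hosts, batches 1 to 4, and at 238, 259, 223 and 460 CPM in B16A hosts. The ratio of NOD to B16A was 1.02, 0.846, 1.11 and 1.25, and the means were 321 ± 171 and 295 ± 111 CPM (SD, n = 4 each). Both hosts overlapped, and the batch 4 libraries were the highest in each. The median log2 fold change over the 13 tested S phase genes was 0.12, with 8 above and 5 below 0, beside a median of 0.01 over all tested genes. Within batches the median log2 ratio was -0.24, -0.24, 0.26 and 0.24, so the sign was not the same in all 4.

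The 20 mitosis genes together stood at 59, 86.4, 47.2 and 75.3 CPM in NOD hosts and at 62.6, 58.5, 58.1 and 66.7 CPM in B16A hosts. The ratio was 0.943, 1.48, 0.813 and 1.13, and the means were 67 ± 17.3 and 61.5 ± 4.02 CPM (SD, n = 4 each). The NOD libraries spread on both sides of the B16A libraries. The median log2 fold change over the 12 tested mitosis genes was -0.02, with 6 above and 6 below 0, and the medians within batches were -0.07, 0.27, -0.14 and 0.04. In bulk RNA, fewer dividing cells and less RNA per dividing cell cannot be told apart.

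**Figure D1:**
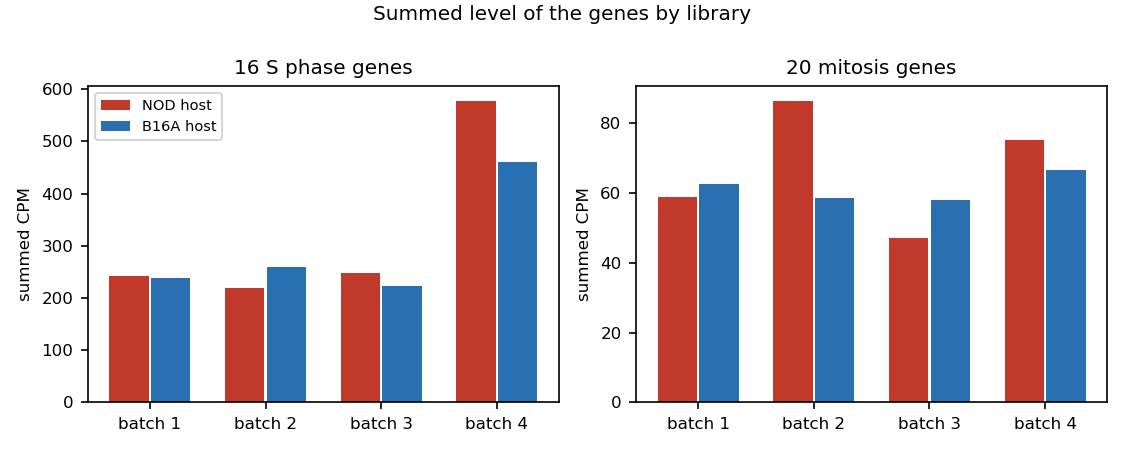
Summed level in CPM (y axis, from 0) of the 16 S phase genes (left) and the 20 mitosis genes (right), with 1 bar per library, NOD in red and B16A in blue, by batch. S phase sums lie between 219 and 259 CPM in the first 3 batches, with batch 4 at 577 (NOD) and 460 CPM (B16A), while mitosis sums lie between 47.2 and 86.4 CPM.

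The MCM2 to MCM7 genes, the 6 subunits of the replicative helicase ring, made up 57.2% to 64.4% of the S phase sum in the 8 libraries. Their sum was 139, 132, 156 and 371 CPM in NOD hosts and 146, 162, 135 and 286 CPM in B16A hosts, so the order of the hosts changed from batch to batch. MCM4 (chr16:15623897-15637400, minus strand) had 42, 20.6, 34.5 and 178 CPM in NOD hosts and 29.7, 31.5, 24.8 and 123 CPM in B16A hosts. It was higher in the NOD library of 3 of 4 batches, and batch 4 stood above all others in both hosts. Its fitted log2 fold change was 0.25 ± 0.20 (SE), with a 95% interval from -0.18 to 0.67. MCM7 (chr5:138164583-138172422, minus strand) had 18.4, 14.4, 19.6 and 33 CPM in NOD hosts and 24.1, 23.4, 22.3 and 34.6 CPM in B16A hosts.

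MCM7 was the 1 tested member that was lower in the NOD library of all 4 batches, where 6.85% of all tested genes were. Its log2 fold change was -0.32 ± 0.20 (SE, edgeR adjusted p = 0.9167), and its hosts overlapped across batches. MCM7 shares 321 exon bases with AP4M1 and 64 with COPS6 on the opposite strand, and the use of strand in the counting is not given. MCM6 was higher in the NOD library of all 4 batches, at 18.8, 22.4, 24.7 and 44.4 CPM against 17.4, 21.8, 19.7 and 43.6 CPM. The step was small, with a log2 fold change of 0.12 ± 0.18 (SE, 95% interval -0.27 to 0.52). MCM2, MCM3 and MCM5 had log2 fold changes of -0.07, -0.04 and 0.20, each with an SE of 0.20 to 0.22. The 6 subunits of 1 complex thus lay on both sides of 0, with 3 above and 3 below.

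Of the licensing factors, CDT1 had 15, 9.54, 17.8 and 29.6 CPM in NOD hosts and 20.1, 17.5, 14.9 and 34.2 CPM in B16A hosts, with a log2 fold change of -0.30 ± 0.23 (SE). CDC6, its partner in loading the ring, did not pass the filter, with 199 counts in all 8 libraries. It stood at 1.2, 0.935, 0.981 and 4.66 CPM in NOD hosts and at 1.52, 2.5, 2.91 and 1.38 CPM in B16A hosts, lower in the NOD library of batches 1 to 3 and higher in that of batch 4. The helicase activator CDC45 had 1.2, 1.68, 3.11 and 5.51 CPM in NOD hosts and 1.83, 0.312, 0.971 and 4.65 CPM in B16A hosts. Its log2 fold change of 0.78 was the highest of the 25 tested members in this fit, with an SE of 0.65 on as few as 2 counts per library. It ran from 0.42 without batch 2 to 1.25 without batch 1, and with no replicate block AURKB was higher (1.22 against 0.55). GINS2, a subunit of the GINS complex, had 52 counts in all and stayed at or under 1.5 CPM in every library. It shares 2758 exon bases with GSE1 on the opposite strand, and with the use of strand not given its level is uncertain.

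PCNA, the sliding clamp, had the smallest p of the set. The gene (chr2:132249162-132253314, minus strand) stood at 37, 20, 25.3 and 98.1 CPM in NOD hosts and at 21.5, 18.6, 15.2 and 91.9 CPM in B16A hosts. The NOD library was higher in all 4 batches, as for 7.43% of all tested genes, with ratios of 1.72, 1.08, 1.67 and 1.07, and the hosts overlapped. The log2 fold change was 0.42 ± 0.19 (SE, 95% interval 0.02 to 0.82), with an unadjusted p of 0.0418 and an adjusted p of 0.8444 by edgeR's quasi-likelihood test. The pseudogene PCNA-PS2 had 4.65 to 6.05 CPM in the NOD libraries of batches 1 and 3 and 6.55 to 7.28 CPM in their B16A partners, so reads of the copies may have been split. With both summed, the ratios were 1.49, 1.08, 1.4 and 1.07.

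Among the genes of nucleotide supply, RRM1, the large subunit of ribonucleotide reductase, had 17.7, 8.04, 11.9 and 43.2 CPM in NOD hosts and 11.7, 13, 14.1 and 26.1 CPM in B16A hosts. It was higher in NOD in batches 1 and 4 and lower in batches 2 and 3, with a log2 fold change of 0.14 ± 0.26 (SE). RRM2, its small and cell cycle-regulated subunit, ranged from 0.344 to 1.87 CPM in the first 3 batches, with 7.53 and 3.52 CPM in batch 4. TYMS, which makes thymidylate, ranged from 3.93 to 8.78 CPM over the 8 libraries, with a log2 fold change of -0.06 ± 0.35 (SE). TK1, the salvage thymidine kinase, had 5.16, 6.92, 4.9 and 2.46 CPM in NOD hosts and 8.22, 12.8, 7.44 and 0.126 CPM in B16A hosts. TK1 was lower in NOD in batches 1 to 3 and higher in batch 4, where the B16A library had 3 counts. Its log2 fold change was 0.10 ± 0.64 (SE) with batch 4 and -0.72 without it.

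CCNE1, the cyclin that acts with CDK2 at S phase entry, followed neither the MCM genes nor PCNA across batches. It had 17, 33.7, 20.1 and 5.24 CPM in NOD hosts and 20.1, 24.7, 23.5 and 2.47 CPM in B16A hosts, so that batch 4 held its 2 lowest values. Its log2 fold change was 0.25 ± 0.26 (SE), higher in the NOD library of 2 of 4 batches.

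**Figure D2:**
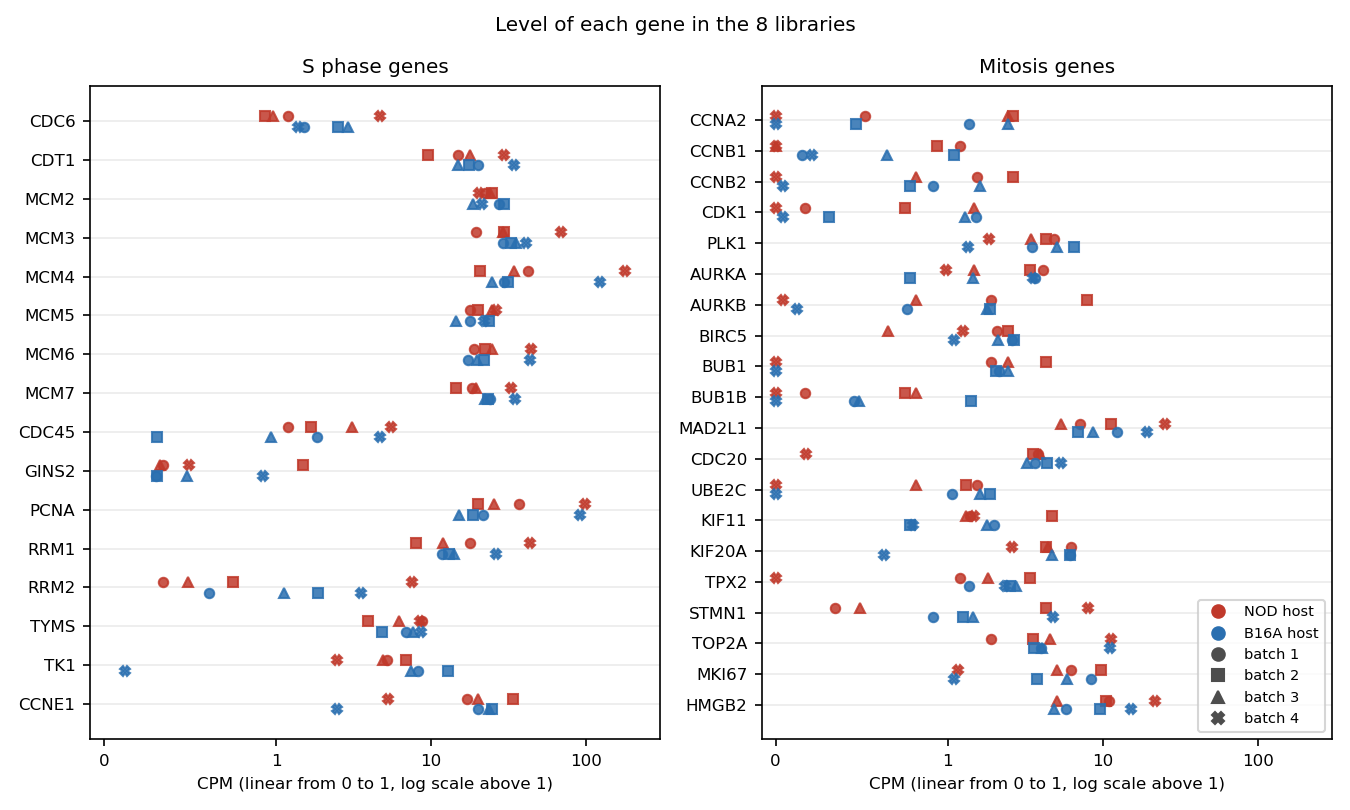
Level of each of the 36 genes in CPM (x axis, linear from 0 to 1 and a log scale above 1), with 1 point per library, host by colour and batch by shape. MCM4 and PCNA reach 91.9 CPM or more in both libraries of batch 4, where BUB1, BUB1B, CCNA2 and UBE2C had 0 counts.

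The mitotic cyclins and their kinase were close to the limit of detection. CCNA2, CCNB1, CCNB2 and CDK1 had 59, 29, 50 and 35 counts over all 8 libraries, and none passed the filter. CCNB1, which starts mitosis with CDK1, ranged from 0 to 1.2 CPM in batches 1 to 3, CDK1 from 0.172 to 1.52 CPM. In batch 4, CCNA2 had 0 counts in both libraries, CCNB2 and CDK1 had 0 (NOD) and 1 (B16A), and CCNB1 had 0 and 5. By counting error alone, 0 counts at that depth allow up to 0.134 CPM in the NOD library and 0.126 CPM in the B16A library. Other sources of spread between libraries are not in that limit.

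The mitotic kinases and the passenger complex were low and varied from library to library. PLK1, which acts from centrosome maturation to cytokinesis, had 4.82, 4.3, 3.43 and 1.84 CPM in NOD hosts and 3.5, 6.55, 5.02 and 1.34 CPM in B16A hosts, with a log2 fold change of -0.06 ± 0.50 (SE). AURKB, the kinase of the chromosomal passenger complex, had 1.89, 7.85, 0.817 and 0.0448 CPM in NOD hosts and 0.761, 1.87, 1.78 and 0.126 CPM in B16A hosts. The batch 2 NOD library held its highest value, and both batch 4 libraries its lowest. BIRC5 (survivin), of the same complex, ranged from 0.654 to 2.65 CPM, and AURKA, the spindle pole kinase, from 0.78 to 4.13 CPM. The log2 fold changes of AURKA, AURKB and BIRC5 were 0.02, 0.52 and -0.40, with SEs of 0.62 to 0.80.

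Among the checkpoint genes, MAD2L1, which holds back the APC/C, had 7.06, 11.2, 5.39 and 25.1 CPM in NOD hosts and 12.3, 6.87, 8.58 and 19.1 CPM in B16A hosts. The fitted log2 fold change was -0.06 ± 0.31 (SE). BUB1, a checkpoint kinase, had 1.89, 4.3, 2.45 and 0 CPM in NOD hosts and 2.13, 2.03, 2.43 and 0 CPM in B16A hosts, and BUB1B stayed at or under 1.4 CPM. CDC20, the activator of the APC/C (chr4:118432901-118437352, minus strand), had 3.79, 3.55, 3.92 and 0.179 CPM in NOD hosts and 3.65, 4.37, 3.24 and 5.36 CPM in B16A hosts. The hosts were within 1 CPM of each other in batches 1 to 3, and 4 counts in NOD stood against 128 in B16A in batch 4. The log2 fold change was -0.90 ± 0.78 (SE), and 0.01 without batch 4. UBE2C, the ubiquitin-conjugating enzyme of the APC/C, had 0 counts in both batch 4 libraries and 0.817 to 1.87 CPM elsewhere.

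TPX2, which nucleates spindle microtubules, showed the same division of batch 4 as CDC20: 0 counts in the NOD library and 56 in the B16A library, or 0 and 2.35 CPM. In batches 1 to 3 it stood at 1.2, 3.37 and 1.8 CPM in NOD hosts and at 1.37, 2.5 and 2.75 CPM in B16A hosts. The log2 fold change was -1.11 ± 0.95 (SE), the lowest of the 25, and -0.11 without batch 4. The motor gene KIF11 reached 4.67 CPM in the NOD library of batch 2 and 0.78 to 1.98 CPM in the other 7. KIF20A, a motor of cytokinesis, had 6.2, 4.3, 4.41 and 2.6 CPM in NOD hosts and 6.09, 6.09, 4.69 and 0.629 CPM in B16A hosts. It shares 1271 exon bases with CDC23 on the opposite strand. STMN1, which destabilises microtubules, had 0.344, 4.3, 0.49 and 8.02 CPM in NOD hosts and 0.913, 1.25, 1.46 and 4.74 CPM in B16A hosts.

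The chromatin genes split between high and low levels in batch 4. MKI67, which coats mitotic chromosomes and is the usual marker of dividing cells (chr7:135689784-135716361, minus strand), had 6.2, 9.72, 5.07 and 1.17 CPM in NOD hosts and 8.37, 3.74, 5.83 and 1.09 CPM in B16A hosts. The log2 fold change was 0.20 ± 0.46 (SE), with the NOD library higher in 2 of 4 batches. TOP2A, the topoisomerase that untangles sister chromatids, had 1.89, 3.55, 4.58 and 11.2 CPM in NOD hosts and 3.96, 3.59, 4.05 and 11.1 CPM in B16A hosts, with a log2 fold change of -0.19 ± 0.41 (SE). HMGB2, a DNA-bending protein (chr8:57511907-57515999, plus strand), had 11, 10.5, 5.07 and 21.5 CPM in NOD hosts and 5.79, 9.52, 4.85 and 15.1 CPM in B16A hosts. HMGB2 was the 1 tested mitosis gene higher in NOD in all 4 batches, with a log2 fold change of 0.42 ± 0.29 (SE, 95% interval -0.20 to 1.04, edgeR adjusted p = 0.9361).

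Over all 36 members, 3 were higher in NOD in all 4 batches (MCM6, PCNA, HMGB2) and 1 was lower in all 4 (MCM7), beside 7.43% and 6.85% of all tested genes. For 0 members did every NOD library lie above, or below, every B16A library, where 0.205% and 0.39% of all tested genes did so. The test was more precise for S phase than for mitosis genes. The 95% interval of the fold change lay within 2-fold in either direction for 11 of 13 S phase genes, with a median SE of 0.22. It did so for 1 of 12 mitosis genes, MAD2L1, with a median SE of 0.57. A host difference larger than 2-fold therefore lay outside the interval of most tested S phase genes, and within the interval of 11 of the 12 mitosis genes in at least 1 direction.

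**Figure D3:**
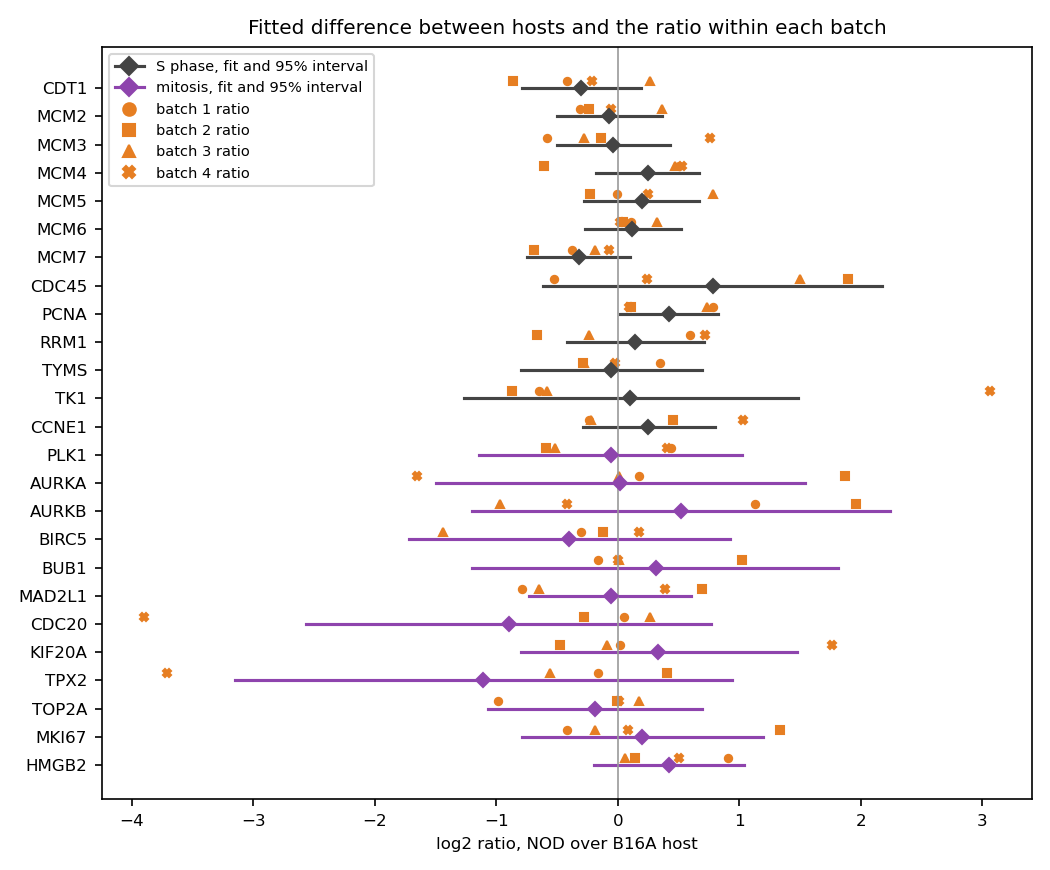
Fitted log2 fold change of NOD over B16A (diamonds) with its 95% interval (lines) for the 25 tested genes, and the log2 ratio within each batch as orange points. The interval includes 0 for 24 of 25 genes, and the median SE is 0.22 for S phase and 0.57 for mitosis genes.

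Batch 4 stood apart from the other batches for many of the members. Of the 16 S phase genes, 9 were higher in both batch 4 libraries than in all other 6 and 2 were lower (TK1 and CCNE1). Of the 20 mitosis genes, 4 were higher (MAD2L1, STMN1, TOP2A and HMGB2) and 10 were lower. Among tested genes the counts were 8 higher and 2 lower of 13 for S phase, and 3 higher and 5 lower of 12 for mitosis. Over all 14607 genes 31.8% were higher and 40.4% lower, so batch 4 set most genes apart, and the counts of tested mitosis genes lie near these shares. The 4 mitosis genes that were higher made up 87.3% (NOD) and 75.1% (B16A) of the mitosis sum in batch 4, and 32.6% to 36.7% in the other libraries. The other 16 summed to 9.55 and 16.6 CPM in batch 4, against 31.7 to 56.8 CPM. Since the 4 were picked by these same values, their larger share in batch 4 follows in large part from that choice. The difference between batches was not tested, and batch 4 has 1 library per host.

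Markers of other cell types moved with batch 4 as well. The 7 B cell markers (EBF1 and PAX5 highest by mean over the 8 libraries) summed to 3.85 and 2.18 CPM there, against 8.53 to 29.5 CPM in batches 1 to 3. CD79A did not follow that sum: it had 32 and 36 counts in batch 4, where PAX5 had 7 and 2, and 2 to 13 counts in the shallower libraries. The 8 myeloid markers (CD68 and CSF1R) summed to 9.41 and 8.17 CPM against 35.7 to 70.3 CPM, and the 6 dendritic cell markers (ZBTB46 and ITGAX) to 9.23 and 3.77 CPM against 32.2 to 54.4 CPM. Other lists went the other way. The 5 NK cell markers (KLRD1 and EOMES) summed to 22.1 and 41.7 CPM against 4.82 to 10.8 CPM. KLRD1 had 438 and 980 counts in batch 4 against 15 to 38 in the shallower libraries, but EOMES had 15 and 2 against 8 to 19. The 2 CD8 T cell markers (CD8B1 and CD8A) summed to 186 and 123 CPM against 65.3 to 121 CPM. CD8A did not follow that sum, with 0 (NOD) and 26 (B16A) counts in batch 4 against 8 to 22. The 5 thymocyte markers (CD1D1 and DNTT) stood at 146 and 92.6 CPM against 23.9 to 34.6 CPM, although RAG1 and RAG2 had 0 counts in batch 4. Depth and the number of genes detected moved with batch 4 too, and the part of each in the members' levels was not tested.

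The NOD library of batch 2 had the largest mitosis sum, 86.4 CPM, and within batches 1 to 3 it was the highest of 6 libraries for 8 of 20 mitosis genes and 2 of 16 S phase genes. Among tested members this was 4 of 12 and 1 of 13, against 26.7% of all tested genes. The 8 mitosis genes were CCNA2, CCNB2, AURKB, BUB1, KIF11, TPX2, STMN1 and MKI67. In this library the B cell markers summed to 29.5 CPM against 8.53 to 15 CPM in the other 5 libraries of batches 1 to 3, the myeloid markers to 70.3 against 35.7 to 44.8 CPM, and the dendritic cell markers to 54.4 against 32.2 to 41.4 CPM. Their part in the mitosis sum was not tested.

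Per length of transcript, most S phase genes stood above the mitosis genes. On the scale of reads per kilobase of the longest coding transcript, scaled to the library size (RPKM), the median level over 8 libraries was 15.4 for PCNA, 10.3 for MCM3, 10 for CCNE1, 9.2 for MCM4 and 8.06 for CDT1. HMGB2 was the highest mitosis gene at 3.8 RPKM, below 10 S phase genes, followed by CDC20 at 2.07 and PLK1 at 1.77. The order was another in batch 4, where the mean of both libraries was 6.95 for HMGB2, 6.02 for STMN1, 2.92 for MAD2L1 and 2.14 for TOP2A, against 1.55 for CDC20 and 0.723 for PLK1. CCNE1 stood at 1.93 RPKM there. At the low end CDK1 stood at 0.121 RPKM and GINS2, whose level is uncertain for its overlap with GSE1, at 0.106 RPKM. Summed counts over summed length gave 4.57 to 5.41 RPKM for S phase genes in batches 1 to 3 and 12.1 and 9.61 RPKM in batch 4. For mitosis genes the values were 0.663 to 1.21 RPKM and 1.06 and 0.936 RPKM, and for the B cell markers, which a T cell sort should lack, 0.323 to 1.12 RPKM and 0.146 and 0.0826 RPKM.

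A background level was taken from 1088 olfactory receptor genes, which T cells are not known to use, a set chosen after the values were seen. In batches 1 to 3 the 90th percentile of these genes was 0.409 to 1.17 RPKM, the highest in the NOD library of batch 2, and in batch 4 it was 0. Their summed counts over summed length gave 0.127 to 0.353 RPKM in batches 1 to 3. Of the 16 S phase genes, 12 or 13 were above that level in each library of batches 1 to 3, and of the 20 mitosis genes, 9 to 16. In these 3 batches BUB1B, CDK1, GINS2 and KIF11 were above it in none of the libraries. All 6 MCM genes, PCNA, CDT1, RRM1, TYMS, TK1, CCNE1, PLK1, BUB1, MAD2L1, CDC20 and HMGB2 were above it in all 6 libraries of batches 1 to 3. In batch 4 any read lies above a level of 0.

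**Figure D4:**
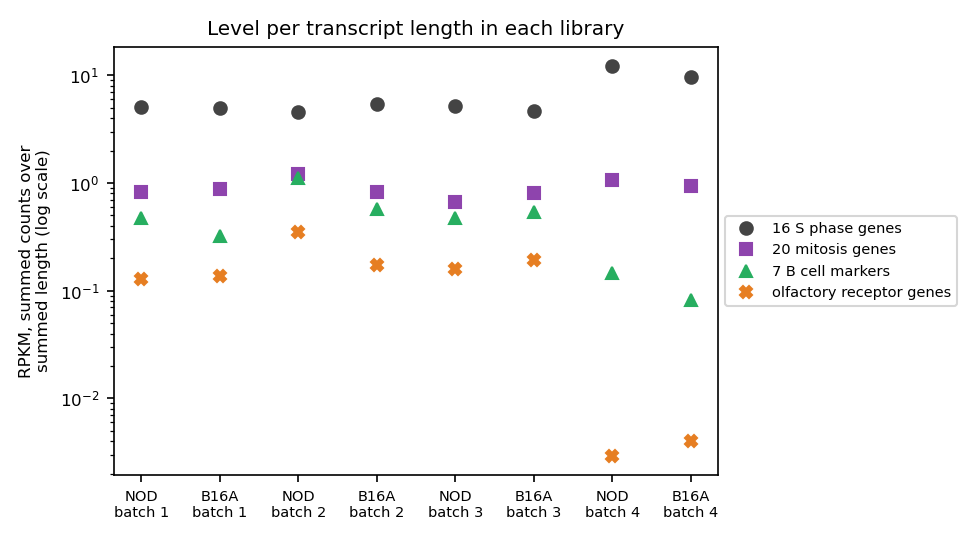
Level per transcript length (RPKM, log axis) in each of the 8 libraries, as summed counts over summed length, for the 16 S phase genes, the 20 mitosis genes, the 7 B cell markers and the 1088 olfactory receptor genes. In the NOD library of batch 2 the mitosis genes (1.21 RPKM) and the B cell markers (1.12 RPKM) lie closest together, and the olfactory receptor genes are lowest in batch 4, at 0.00294 and 0.00402 RPKM.

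Other genes of DNA replication were likewise not called. Of 48 genes (origin recognition, clamp loader, polymerases and others), 45 were tested, 0 passed the adjusted threshold, and their median log2 fold change was 0.04. At an unadjusted p under 0.05 by edgeR, 2 were higher in NOD hosts and 0 lower, where 3.55% of all tested genes were higher and 2.31% lower. The smallest p was that of RFC2, a clamp loader subunit, at 45.1, 35.5, 70.9 and 77.8 CPM in NOD hosts and 42, 25.6, 33.8 and 53.9 CPM in B16A hosts. Its log2 fold change was 0.54 ± 0.18 (SE, edgeR adjusted p = 0.7513), higher in NOD in 4 of 4 batches. ORC4, an origin recognition subunit, had a log2 fold change of 0.41 ± 0.14 (SE), and RFC4, of the clamp loader, of 0.87 ± 0.41. The sum of the 48 genes was 661 to 793 CPM in batches 1 to 3 and 2070 and 1710 CPM in batch 4.

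Of 58 other mitotic genes, 44 were tested, 0 passed, and the median log2 fold change was 0.09. At an unadjusted p under 0.05 by edgeR, 2 were higher in NOD hosts and 0 lower, beside the same 3.55% and 2.31% of all tested genes. The smallest p belonged to SMC2, of condensin, with a log2 fold change of 0.46 ± 0.18 (SE), followed by the checkpoint genes BUB3 (0.38 ± 0.16) and MAD1L1 (0.38 ± 0.20) and the condensin gene NCAPD2 (-0.57 ± 0.32). In batch 4, 8 of the 58 stood above and 23 below all other libraries, against 23 above and 7 below for the 48 replication genes. The share of all tested genes was 31.8% above and 40.4% below, so the count of mitotic genes below lies near that of all genes. Fewer mitotic genes than that share stood above. Of the replication genes, more than that share stood above and fewer below. Both lists include untested genes, which the share does not, and these differences were not tested.

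Of the genes that control entry into the cycle, 0 passed the adjusted threshold by edgeR. At an unadjusted p under 0.05 there were 1 of 17 tested transcription factors, 2 of 7 G1 cyclins and CDKs and 2 of 6 tested CDK inhibitors, where 3.55% of all tested genes were higher and 2.31% lower at that p. Of the transcription factors, the smallest p were those of E2F6, a repressor of the E2F family, with a log2 fold change of -1.15 ± 0.51 (SE), and E2F4, a repressor in resting cells, at -0.30 ± 0.15. Next came LIN9 (0.46 ± 0.25) and LIN54 (-0.23 ± 0.18), both of the MuvB complex. Of 7 G1 cyclins and CDKs, CCND2, a D cyclin of lymphocytes, had 254, 223, 308 and 371 CPM in NOD hosts and 293, 406, 474 and 389 CPM in B16A hosts. CCND2 was lower in NOD in 4 of 4 batches, with a log2 fold change of -0.44 ± 0.15 (SE, edgeR adjusted p = 0.7617). CDC25A, a phosphatase that activates CDK2, was higher in 4 of 4 batches at 0.52 ± 0.21 (SE), while CCND1 and CDK6 had log2 fold changes of -0.15 and 0.03.

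Of 11 CDK inhibitors and antiproliferative genes, 6 were tested, with a median log2 fold change of 0.24. CDKN2D, an inhibitor of CDK4 and CDK6, had 40.3, 25.6, 58.3 and 240 CPM in NOD hosts and 43.4, 9.99, 25.9 and 131 CPM in B16A hosts. It was higher in NOD in 3 of 4 batches, with a log2 fold change of 0.80 ± 0.21 (SE), an adjusted p of 0.6832 by edgeR and of 0.0496 by DESeq2. BTG1, linked to quiescence of T cells, had 862, 236, 379 and 13000 CPM in NOD hosts and 790, 200, 199 and 10800 CPM in B16A hosts, a log2 fold change of 0.39 ± 0.16 (SE). BTG2 and CDKN1B, which encodes the CDK inhibitor p27, had log2 fold changes of 0.35 ± 0.19 and 0.12 ± 0.14. All 4 stood higher in both batch 4 libraries than in the other 6, as did 8 of the 11 in total, untested genes included. Of all tested genes 31.8% did so, and this difference between batches was not tested.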

How the data were processed

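RNA of 8 libraries was measured after SeqPlex amplification and sequenced as single reads of 50 bases, per the labels' protocols. The authors deposited raw read counts per gene as 1 table. The submitters' processing notes name STAR, HTSeq, DESeq2 and build mm10. For their versions, the annotation and strand handling the entry is: not given in the sources used here. Hence genes with near copies or antisense partners are uncertain.

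The test was edgeR's quasi-likelihood test (edgeR 4.0.16, R 4.3.3, with filterByExpr on host, TMM, glmQLFit with robust estimation, glmQLFTest) with host and batch as terms. The Benjamini-Hochberg adjustment covered the 14607 tested genes, with a threshold of 0.05. The filter removed 32018 genes. SEs come from the quasi-likelihood F statistic, log2 CPM has a prior count of 2, and transcript lengths come from GENCODE vM21. Groups and batch numbers were taken from the labels. The labels call the number a batch, which pairs the hosts. Deviations from the host means correlated across genes at r = 0.625, 0.702, 0.611 and 0.906 between partners of batches 1 to 4, although the batch 2 NOD library was closest to the B16A library of batch 3. Pairs from different batches among batches 1 to 3 reached 0.465 to 0.741, so the check hardly tells partners apart there. Any 2 libraries differed by more than sampling noise (smallest chi-square per degree of freedom 8.79). The test was checked on simulated counts.

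Members and lists were chosen with earlier results of these data known. All members are named, and each wider list contributes up to 4 genes that passed, or failing that the 4 of smallest p. Of these, 1 gene is not reported here. Of marker lists the 2 highest genes are named. Alternatives were DESeq2 1.42.0, limma 3.58.1 with voom, other size factors, other filters, no batch term and leaving out each batch.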

Additional observations from a re-analysis of the deposited data

Results flagged for a closer look

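Dixon's 95% criterion for a library far from the others of its group was applied to 97 sets of 4 values, and it marked 15. The sets were the CPM of members in each host and within-batch log2 ratios of members. Chance marks about 1 in 20 of independent sets, but sets of 1 gene share libraries. Of the 15, 11 concern batch 4. The criterion was applied to the members alone. Of all tested genes, both batch 4 libraries stood above the other 6 for 31.8% and below them for 40.4%.

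In B16A hosts the batch 4 library was high for MCM4 (123 CPM, others 24.8 to 31.5), MCM7 (34.6 CPM, others 22.3 to 24.1) and TOP2A (11.1 CPM, others 3.59 to 4.05). It was low for TK1 (0.126 CPM, others 7.44 to 12.8), CCNE1 (2.47 CPM, others 20.1 to 24.7), BUB1 (0 CPM, others 2.03 to 2.43) and KIF20A (0.629 CPM, others 4.69 to 6.09). In NOD hosts the batch 4 library was high for CDC6 (4.66 CPM, others 0.935 to 1.2) and low for CDC20 (0.179 CPM, others 3.55 to 3.92), and the batch 2 library was high for KIF11 (4.67 CPM, others 1.31 to 1.48).

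Among the log2 ratios of NOD over B16A, batch 4 stood apart for TK1 (3.06, others -0.87 to -0.58) and CDC20 (-3.9, others -0.28 to 0.26). Batch 2 stood apart for MCM4 (-0.61, others 0.47 to 0.53) and BUB1 (1.02, others -0.16 to 0.01), and batch 1 for TOP2A (-0.99, others -0.01 to 0.17).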

How the results depend on the processing

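No member passed an adjusted p of 0.05 under any of the 11 alternatives, with the lowest adjusted p of a member between 0.411 and 1. Over all genes, DESeq2 with the batch term called 23 higher and 4 lower in NOD hosts, limma voom with quality weights 8 and 1, and edgeR with no filter on low counts 11 and 3. Leaving out 1 batch at a time gave 0 to 25 higher and 0 to 7 lower, with 25 and 7 called without batch 4 alone. Without the replicate block edgeR called 0 genes, 34 genes had an unadjusted p under 0.05 against 857 with it, and the medians were 0.1 for S phase and 0.03 for mitosis. Leaving out 1 batch at a time, the S phase median ran from -0.06 to 0.17 and the mitosis median from -0.24 (without batch 2) to 0.16, so neither kept its sign. TK1 moved from 0.10 to -0.55 with no replicate block and -0.72 without batch 4, where its unadjusted p was under 0.05 by edgeR, and MCM4 to 0.5 without batch 2 (unadjusted p = 0.0134 by edgeR). MCM3 moved to -0.33, CDC20 to 0.01 and TPX2 to -0.11 without batch 4, and CCNE1 to -0.01 with limma. PCNA had an unadjusted p of 0.00987 with limma, 0.0145 without batch 4 and 0.0507 with upper-quartile factors. It missed an unadjusted p of 0.05 by edgeR also with no filter (0.0505), without batch 1 (log2 fold change 0.29), without batch 3 (0.32) and with no replicate block (0.29). The cause of these moves was not tested. Of the 20 mitosis genes 8 did not pass the count filter, and 3 counts equal 0.457 to 0.561 CPM in batches 1 to 3.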

Other observations

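Replication-dependent histone genes, whose transcripts accumulate in S phase and lack poly(A) tails, were looked at after the members' values were seen. The 70 genes in the table summed to 474, 328, 442 and 311 CPM in NOD hosts and 305, 438, 318 and 286 CPM in B16A hosts. Batch 4 held the lowest sum of each host, unlike the sum of the S phase members, which was highest there. Of 19 tested histone genes, 2 had an unadjusted p under 0.05 by edgeR, where 3.55% of all tested genes were higher in NOD hosts and 2.31% lower. The median log2 fold change of the 19 was 0.18.

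Without the filter on low counts, the fit gave values for the 11 members with few reads. Their SEs ran from 0.67 (STMN1) to 1.27 (BUB1B), and their log2 fold changes from -0.86 (CCNB1) to 0.58 (KIF11), each with an edgeR adjusted p of 0.9994.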
